A study of Mus musculus with 12 samples.

Results

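RNA of 33 genes for the synthesis, regulation and export of sterols and fatty acids was examined in lymph node T cells of B6 and FlipFlop mice. The genes were listed by symbol, with no rule on their values but with earlier results of these data known. Each of the 33 was found as 1 row among the 12809 genes of the table. They were grouped by role into 6 genes of the mevalonate arm, 11 of the squalene and sterol arm, 5 regulators of SREBP (sterol regulatory element binding protein), 4 of acetyl-CoA and fatty acid synthesis, 5 elongases and desaturases, and 2 of sterol efflux. In B6 mice (C57BL/6, female, 10 weeks old) the Cd4 and Cd8a loci are unaltered. In FlipFlop mice (female, 14 weeks old) both copies of the Cd8a locus encode CD4 proteins and both copies of the Cd4 locus encode CD8αβ.1 proteins. The altered Cd8a locus came from 4in8 mice, made with the 129R1 embryonic stem cell line, and the altered Cd4 locus came from 8in4 mice, made with B6 stem cells. Lymph node cells of each strain were sorted for either coreceptor, which gives CD4 and CD8 groups in B6 and in FlipFlop mice, 4 groups of 3 libraries in all. Strain and the labelled age cannot be told apart in these groups.

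In the study, the helper lineage is made up of B6 CD4 and FlipFlop CD8 cells, and the cytotoxic lineage of the other 2 groups, B6 CD8 and FlipFlop CD4. Zbtb7b, which encodes the helper-lineage factor ThPOK, was at 192 to 203 and 162 to 172 in these helper groups and at 1.16 to 1.99 and 1.87 to 2.79 in the cytotoxic groups, in CPM (read number relative to library size, scaled by TMM, a correction for library composition). Cd4 RNA was at 961 to 1090.3 CPM in B6 CD4 and 637 to 719 CPM in FlipFlop CD4 libraries, against 0.600 to 2.40 CPM (B6) and 40.9 to 43.6 CPM (FlipFlop) in CD8 libraries. Cd8b1 RNA was at 1839 to 1924 CPM (B6) and 125 to 151 CPM (FlipFlop) in CD8 libraries, but also at 1639 to 1962 CPM in FlipFlop CD4 libraries. Cd8a RNA was at 1472 to 1500 CPM (B6) and 138 to 159 CPM (FlipFlop) in CD8 libraries, and at 0.854 to 0.967 CPM in FlipFlop CD4 libraries. The 12 libraries held about 26570300 to 33115700 reads on the listed genes, and 3 reads, the upper limit behind a count of 0, equalled 0.0857 to 0.120 CPM. Each member had between 68 and 10180 reads per library. The summed T cell markers were at 3857 to 5252 CPM, against 36.4 to 69.1 CPM for 7 B cell markers. Differences are on the log2(CPM + 0.5) scale, with the SE and the adjusted p of limma, over 11595 tested genes, and a gene was called at an adjusted p under 0.05. All 33 members were tested. No label says that replicates came from separate mice, so the p-values measure the spread between these libraries. In such bulk samples fewer cells of a type and less RNA per cell cannot be told apart.

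Sterols are built from acetyl-CoA, which is joined to give mevalonate, turned into isoprenoids, condensed to squalene and closed into lanosterol, from which a chain of enzymes makes cholesterol. SREBP proteins are held in the endoplasmic reticulum by Insig proteins while sterols are plentiful, and are escorted by Scap to be cut and to switch on these genes when sterols run low. Fatty acids branch off at acetyl-CoA carboxylase, and dividing T cells draw on both routes to build membranes.

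Upstream sequence is shown for 4 members, of which Hmgcs1 was called lower and the other 3 were called higher in helper cells below, to show which motifs known from SREBP promoters they hold and where. Windows of 300 bases, from 250 before to 50 after a RefSeq gene start on GRCm38.p6, were matched by symbol for 27 of the 33 members (all but Fdps, Fdft1, Sqle, Scd1, Scd2 and Abcg1), and a gene was counted if any of its windows held the motif on either strand. The NF-Y box, CCAAT, was found in 23 of the 27 members (85.2%), compared with 41.1% of all 27025 genes with a window and 43.4% of the 8758 tested genes with one. The Sp1 box, GGGCGG, was found in 22 members (81.5%), compared with 38.2% of all genes and 69.4% of the tested genes. The E-box, CACGTG, was found in 7 members (25.9%), against 8.09% and 12.1%. The sterol regulatory element core TCACNCCAC was found in Hmgcs1 and in no other member, against 1.44% and 1.37%. The direct repeat bound by the sterol sensor LXR was found in 0 of 27 members and in 4 of all genes. Motifs were counted separately, also where they overlapped, and a match or its absence describes only these letters in these windows. The 150 bases that end before the earlier of the RefSeq and GENCODE starts are given 5′ to 3′, with the sterol regulatory element core, NF-Y boxes (CCAAT or ATTGG) and E-boxes in capitals. Mvk lies on the plus strand at chr5:114444119-114444268, Sc5d on the minus strand at chr9:42264301-42264450, Insig1 on the plus strand at chr5:28071213-28071362 and Hmgcs1 on the plus strand at chr13:119690201-119690350.
Mvk: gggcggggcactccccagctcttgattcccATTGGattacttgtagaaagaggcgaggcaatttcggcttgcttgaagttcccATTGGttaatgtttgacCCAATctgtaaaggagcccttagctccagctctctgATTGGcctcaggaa
Sc5d: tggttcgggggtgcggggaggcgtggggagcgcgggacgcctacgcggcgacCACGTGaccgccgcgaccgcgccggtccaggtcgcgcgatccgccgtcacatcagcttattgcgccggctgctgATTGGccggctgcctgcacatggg
Insig1: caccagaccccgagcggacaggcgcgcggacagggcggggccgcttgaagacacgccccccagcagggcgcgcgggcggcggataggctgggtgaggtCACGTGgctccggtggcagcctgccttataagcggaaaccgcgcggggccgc
Hmgcs1: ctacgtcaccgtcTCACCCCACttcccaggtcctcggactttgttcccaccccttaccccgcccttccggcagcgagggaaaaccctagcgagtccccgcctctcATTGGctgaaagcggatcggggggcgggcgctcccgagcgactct
The Mvk stretch held 4 NF-Y boxes, the Insig1 stretch an E-box but no NF-Y box or sterol regulatory element core, and in the Hmgcs1 stretch the sterol regulatory element core began 137 bases before the RefSeq start and an NF-Y box 45 bases before it.

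The first question was whether these genes followed the lineage of the cells or the coreceptor on their surface. The lineage effect is the mean of B6 CD4 and FlipFlop CD8 minus the mean of B6 CD8 and FlipFlop CD4, and equals 0.5 times the difference between the strains of their CD4 minus CD8 differences. The squalene and sterol arm had 7 of 11 members higher and 0 lower in helper cells, whereas acetyl-CoA and fatty acid synthesis had 0 of 4 higher and 1 lower. Summed over its 11 genes, the squalene and sterol arm was at 302.0 to 321 CPM in B6 CD4, 242 to 253 CPM in B6 CD8, 216 to 246 CPM in FlipFlop CD4 and 254 to 292 CPM in FlipFlop CD8 libraries. Of the 33 members, 14 (42.4%) were called in the lineage effect, close to the 39.3% of all tested genes. In the helper-lineage groups 10 members (30.3%) were higher, against 19.9% of all tested genes, and 4 (12.1%) were lower, against 19.4%. With the replicate within each strain as a block, 11 members (33.3%) were higher, against 22.1%, and 7 (21.2%) were lower, against 22.5%. In this fit, also for the single members given below, the B6 libraries that were joined share only a number. The median member difference was 0.090 and the median over all tested genes was -0.025. The coreceptor effect, the mean of both CD4 groups minus the mean of both CD8 groups, called 0 of the 33 members by limma, with 4 members (Abca1, Scd2, Elovl6 and Mvk) at an unadjusted p under 0.05 (18.6% of all tested genes were), and 5.49% of all tested genes were called, 1.71% higher and 3.78% lower in CD4. Of these calls 31.1% were higher in CD4, and 16.3% without the TMM factor. With the replicate as a block, 1 member (Acss2) was higher and 1 (Elovl6) was lower in the coreceptor effect, where 2.92% and 5.31% of all tested genes were. Without the TMM factor the median lineage effect of all tested genes moved by 0.12 toward helper cells and 75.5% of all calls were higher there, against 50.6% with it. Without it 17 members were higher (30.8% of all tested genes) and 1 (Acaca) was lower (10% of all tested genes).

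**Figure D1:**
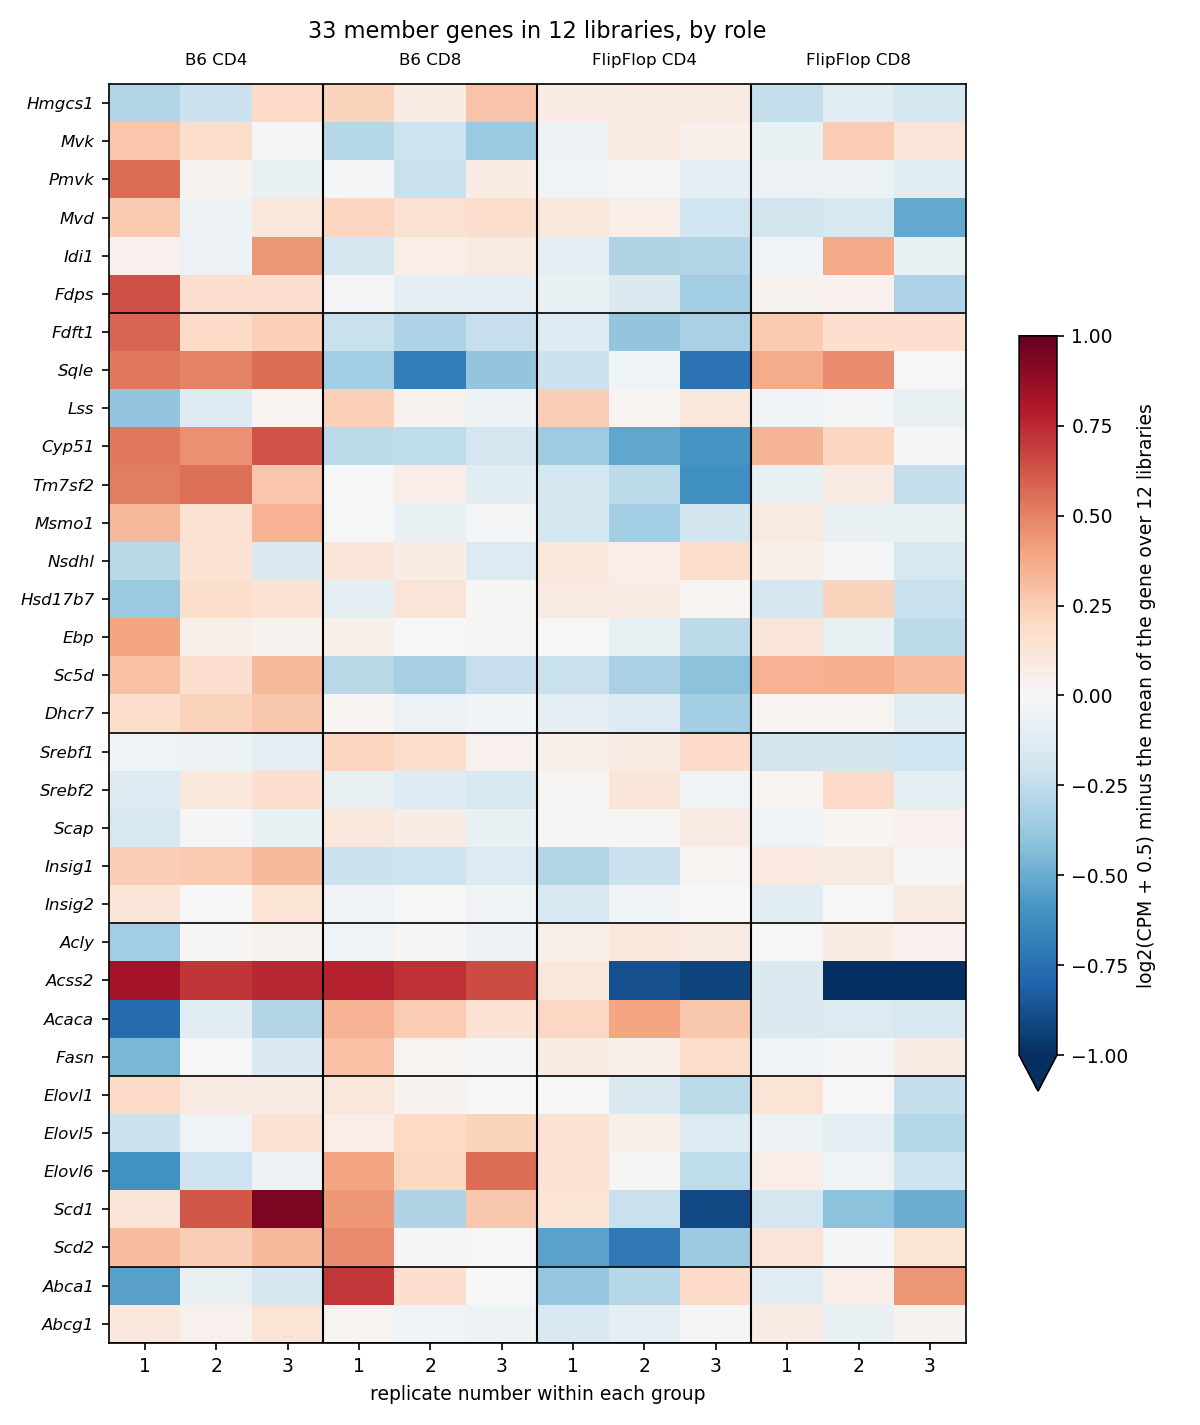
Log2(CPM + 0.5) of each of the 33 members in each of the 12 libraries, minus the mean of that gene over the 12 libraries. Rows run by role from the mevalonate arm at the top through the squalene and sterol arm, SREBP regulators, acetyl-CoA and fatty acid synthesis, and elongases and desaturases to sterol efflux. Values range from -1.32 to 0.94, and Sqle, Cyp51, Sc5d and Fdft1 are above their mean in B6 CD4 and below it in B6 CD8 and FlipFlop CD4 libraries.

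The 4 members with the largest differences toward helper cells were enzymes of the squalene and sterol arm. Sqle (squalene epoxidase, chr15:59315077-59331192), which puts the first oxygen into squalene, was at 19.0, 18.6 and 19.5 CPM in CD4 and 10.1, 7.88 and 9.77 CPM in CD8 libraries of B6 mice, and at 11.2, 12.6 and 7.62 CPM in CD4 and 17.0, 18.3 and 13.03 CPM in CD8 libraries of FlipFlop mice. Every helper library was above every cytotoxic library, and the lineage effect was 0.81 (SE 0.12, adjusted p = 0.000173), or 1.76-fold. Fdft1 (squalene synthase, chr14:63145150-63179578), which condenses farnesyl units to squalene, was at 30.4, 23.0 and 23.9 CPM in CD4 and 17.2, 16.2 and 17.1 CPM in CD8 libraries of B6 mice, and at 18.4, 15.2 and 16.0 CPM in CD4 and 24.2, 22.8 and 22.7 CPM in CD8 libraries of FlipFlop mice. Again the 6 helper libraries did not overlap the 6 cytotoxic ones, with a lineage effect of 0.54 (SE 0.075, adjusted p = 9.47e-05).

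Cyp51 (lanosterol 14α-demethylase, chr5:4081145-4104746), which removes a methyl group from lanosterol, was at 38.2, 36.2 and 41.0 CPM in CD4 and 21.9, 21.9 and 23.4 CPM in CD8 libraries of B6 mice, and at 20.5, 18.2 and 17.3 CPM in CD4 and 33.4, 30.7 and 26.0 CPM in CD8 libraries of FlipFlop mice. Its helper libraries were all above its cytotoxic ones, by 0.72 (SE 0.069, adjusted p = 3.82e-06). Sc5d (sterol C5-desaturase, chr9:42251595-42264256), which adds a double bond near the end of the pathway, was at 38.5, 35.3 and 39.6 CPM in CD4 and 25.9, 24.9 and 26.7 CPM in CD8 libraries of B6 mice, and at 26.9, 25.0 and 23.6 CPM in CD4 and 40.2, 40.3 and 39.0 CPM in CD8 libraries of FlipFlop mice. The groups of each lineage lay close together for this gene and the lineages did not overlap, with a lineage effect of 0.60 (SE 0.05, adjusted p = 1.12e-06). These 4 genes were the members whose 6 helper libraries all lay above the 6 cytotoxic ones, as did 9.9% of all tested genes.

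**Figure D2:**
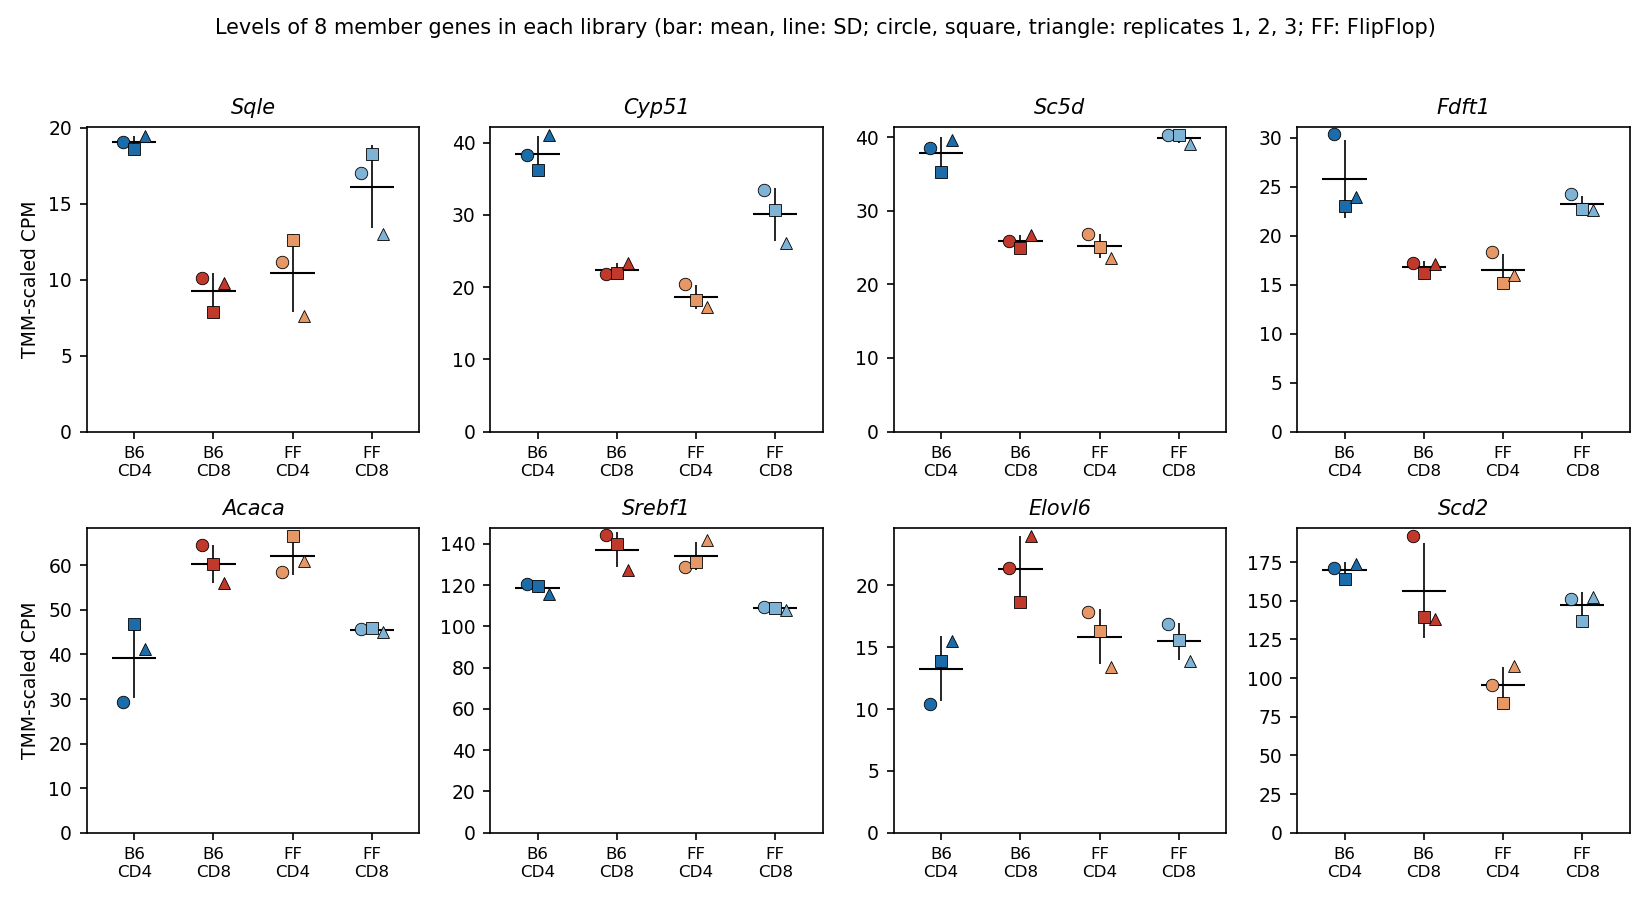
TMM-scaled CPM of 8 members by group (FF: FlipFlop), with 1 point per library, a bar at the mean of the 3 libraries and a line of 1 SD to each side. Sqle, Cyp51, Sc5d and Fdft1 are high in B6 CD4 and FlipFlop CD8, Acaca and Srebf1 are low there, Elovl6 is highest in B6 CD8, and Scd2 is lowest in FlipFlop CD4.

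A further 3 sterol enzymes were called with smaller differences. Tm7sf2, a sterol C14-reductase gene (chr19:6062821-6068373), was at 6.09, 6.29 and 5.12 CPM in CD4 and 4.11, 4.36 and 3.78 CPM in CD8 libraries of B6 mice, and at 3.61, 3.36 and 2.53 CPM in CD4 and 3.89, 4.40 and 3.43 CPM in CD8 libraries of FlipFlop mice, a lineage effect of 0.37 (SE 0.10, adjusted p = 0.0106). Msmo1 (sterol C4-methyl oxidase, chr8:64718139-64733792) was at 33.5, 29.5 and 33.9 CPM in CD4 and 26.6, 25.2 and 26.1 CPM in CD8 libraries of B6 mice, and at 23.3, 20.8 and 23.3 CPM in CD4 and 28.1, 25.2 and 25.1 CPM in CD8 libraries of FlipFlop mice, and its lineage effect was 0.26 (SE 0.057, adjusted p = 0.00288). Dhcr7, whose enzyme makes cholesterol from 7-dehydrocholesterol (chr7:143823145-143848410), was at 55.4, 57.7 and 59.4 CPM in CD4 and 49.8, 47.2 and 48.3 CPM in CD8 libraries of B6 mice, and at 46.2, 44.8 and 38.8 CPM in CD4 and 49.9, 50.1 and 45.4 CPM in CD8 libraries of FlipFlop mice, a lineage effect of 0.20 (SE 0.053, adjusted p = 0.00886). In all 3 genes the helper group of each strain had the higher mean, but FlipFlop CD8 libraries overlapped B6 CD8 libraries. Of the other sterol enzymes, Lss (lanosterol synthase), Nsdhl, Hsd17b7 and Ebp did not pass the test, and their lineage effects were -0.21, -0.13, -0.074 and 0.09 (SE 0.08, 0.079, 0.11 and 0.082). Tm7sf2 overlaps Vps51 on the same strand and had read numbers that were not whole in 7 of 12 libraries, and Fdft1 overlaps Ctsb and Cyp51 overlaps Akap9 on the opposite strand, so their values are less certain. The same holds on the opposite strand for Srebf1 (Rai1), Mvd (Gm20388) and Elovl1 (Cdc20).

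In the mevalonate arm 1 of 6 members was higher in helper cells and 1 was lower. Mvk (mevalonate kinase, chr5:114444269-114460591) was at 15.9, 14.8 and 12.9 CPM in CD4 and 10.6, 11.2 and 9.97 CPM in CD8 libraries of B6 mice, and at 12.5, 13.9 and 13.5 CPM in CD4 and 12.4, 15.6 and 14.3 CPM in CD8 libraries of FlipFlop mice. The B6 groups were apart and the FlipFlop groups overlapped, with a lineage effect of 0.26 (SE 0.074, adjusted p = 0.0149). Hmgcs1 (chr13:119690379-119708260), the synthase that feeds the mevalonate route, went the other way, at 30.8, 32.4 and 43.1 CPM in CD4 and 44.2, 39.7 and 46.1 CPM in CD8 libraries of B6 mice, and at 39.8, 40.0 and 40.3 CPM in CD4 and 32.0, 35.1 and 33.3 CPM in CD8 libraries of FlipFlop mice. Its FlipFlop groups were apart and 1 B6 CD4 library reached the B6 CD8 libraries, and the lineage effect, which lost its call without the TMM factor, was -0.28 (SE 0.077, adjusted p = 0.0125). Pmvk, Mvd, Idi1 and Fdps, which carry mevalonate to farnesyl diphosphate, were not called in the lineage effect (0.10, -0.17, 0.23 and 0.25). With the replicate as a block, Mvd was called lower and Fdps higher (adjusted p = 0.0310 and 0.0118 by limma). For Fdps without the block the adjusted p was 0.0560, and B6 CD4 replicate 1 was at 47.1 CPM against 33.7 and 33.8 CPM in the other B6 CD4 libraries. The read number of Fdps was whole in only 4 of 12 libraries, and that of Idi1 in 8, so their values are less certain.

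Among the regulators, Insig1 and Srebf1 were called in opposite directions. Insig1 (chr5:28071363-28078662), whose protein holds the SREBP and Scap complex back, was at 32.9, 33.2 and 34.7 CPM in CD4 and 23.7, 23.9 and 25.1 CPM in CD8 libraries of B6 mice, and at 22.4, 23.7 and 28.2 CPM in CD4 and 29.6, 29.4 and 27.9 CPM in CD8 libraries of FlipFlop mice. It was higher in helper cells by 0.35 (SE 0.059, adjusted p = 0.000482), and the FlipFlop groups met at 27.9 and 28.2 CPM. Srebf1 (chr11:60199089-60222581), the SREBP gene best known for fatty acid synthesis, was at 120.4, 119.7 and 116 CPM in CD4 and 144, 139.9 and 128 CPM in CD8 libraries of B6 mice, and at 129, 131 and 142 CPM in CD4 and 109, 109 and 108 CPM in CD8 libraries of FlipFlop mice. Each helper library was below each cytotoxic library, and the lineage effect, no longer called without the TMM factor, was -0.25 (SE 0.044, adjusted p = 0.000608). Srebf2, the SREBP gene best known for sterol synthesis, was between 249 and 317 CPM in the 12 libraries and did not pass the test (0.093, SE 0.064, adjusted p = 0.288), nor did Scap (-0.073, SE 0.047) or Insig2 (0.081, SE 0.056).

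The fatty acid genes showed 1 call among the 4 of acetyl-CoA and fatty acid synthesis. Acaca (acetyl-CoA carboxylase 1, chr11:84129672-84401651), which commits acetyl-CoA to fatty acids, was at 29.4, 46.8 and 41.1 CPM in CD4 and 64.5, 60.3 and 56.0 CPM in CD8 libraries of B6 mice, and at 58.5, 66.6 and 60.9 CPM in CD4 and 45.6, 46.0 and 45.1 CPM in CD8 libraries of FlipFlop mice. All helper libraries were below all cytotoxic ones, with a lineage effect of -0.54 (SE 0.094, adjusted p = 0.000576), and its read number was not whole, as where reads are divided between genes, in 11 of 12 libraries. Acaca and Srebf1 were the members whose 6 helper libraries all lay below the 6 cytotoxic ones, as did 7% of all tested genes. Without both B6 libraries of replicate 1, a choice made after the values were seen, the same 10 members were called higher in helper cells, and 3 of the same 4 were called lower, without Elovl6 (-0.27, SE 0.10, adjusted p = 0.0529 by limma). Acly (ATP citrate lyase) and Fasn (fatty acid synthase) did not pass the test, at -0.061 (SE 0.064) and -0.20 (SE 0.079, adjusted p = 0.0620), nor did Acss2 (-0.15, SE 0.21), which was called with the replicate block (adjusted p = 0.0198 by limma).

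Of the elongases and desaturases, 1 of 5 was higher and 1 lower. Elovl6 (chr3:129532355-129638495), which lengthens saturated and monounsaturated chains, was at 10.4, 13.9 and 15.5 CPM in CD4 and 21.4, 18.7 and 24.0 CPM in CD8 libraries of B6 mice, and at 17.9, 16.3 and 13.4 CPM in CD4 and 16.9, 15.6 and 13.9 CPM in CD8 libraries of FlipFlop mice. The lineage effect of -0.35 (SE 0.11, adjusted p = 0.0204) came with apart B6 groups and overlapping FlipFlop groups, and the call was lost without B6 CD8 replicate 3, FlipFlop CD4 replicate 1 or FlipFlop CD8 replicate 3 (adjusted p = 0.0544, 0.0529 and 0.0527 by limma). It was also lost without the TMM factor (-0.23, adjusted p = 0.0978 by limma) and without the shrinkage of variances (adjusted p = 0.0502). Scd2 (chr19:44293674-44306864), a desaturase that makes monounsaturated fatty acids, was at 171, 164 and 174 CPM in CD4 and 192, 139 and 138 CPM in CD8 libraries of B6 mice, and at 95.6, 84.1 and 107 CPM in CD4 and 151, 137 and 153 CPM in CD8 libraries of FlipFlop mice. Here the FlipFlop groups were apart and the B6 groups overlapped, with a lineage effect of 0.38 (SE 0.086, adjusted p = 0.00384). Scd2 and its paralog Scd1 had read numbers that were not whole in all 12 libraries, so the split between them is uncertain. Elovl1, Elovl5, Scd1 and the efflux pumps Abca1 and Abcg1 were not called, with lineage effects of 0.085, -0.18, 0.20, -0.13 and 0.11 (SE 0.068, 0.073, 0.19, 0.15 and 0.044). With the replicate block Elovl5 was called lower in helper cells (adjusted p = 0.00720 by limma).

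Compared within B6 mice, 9 members were higher in CD4 than in CD8 T cells (14.6% of all tested genes were) and 3 were lower (10.8% were), and without the TMM factor 69.5% of all calls were higher in CD4, against 57.3% with it. Within FlipFlop mice, 2 members were higher in CD4 than in CD8 T cells (15.3% of all tested genes) and 5 were lower (16% of all tested genes). The count of 2 higher members was 1 without FlipFlop CD4 replicate 2, FlipFlop CD8 replicate 2 or FlipFlop CD8 replicate 3. In either direction 12 members were called in B6 (25.4% of all tested genes) and 7 in FlipFlop mice (31.3%). The 2 comparisons share no library. The CD4 and CD8 libraries of B6 did not overlap for 15 members (37.8% of all tested genes), 11 higher in CD4 (20.6%) and 4 lower (17.2%). In FlipFlop mice they did not overlap for 12 members (47.2% of all tested genes), 5 higher in CD4 (25.6%) and 7 lower (21.6%). Counted as helper minus cytotoxic, 29 of 33 members had the same sign in both strains, 17 higher and 12 lower, as did 70.3% of all tested genes. Called in both strains in the same direction were 6 members, Fdft1, Sqle, Cyp51, Sc5d, Srebf1 and Acaca, out of 12 called in B6 and 7 called in FlipFlop mice, where 16.9% of all tested genes were called in both. Sqle was higher in helper cells by 1.01 in B6 mice and by 0.61 in FlipFlop mice (SE 0.17 in each), and Sc5d by 0.54 and 0.66 (SE 0.071 in each). The sign differed between strains for Pmvk, Acss2, Scd1 and Abca1. Because same-numbered libraries of the 2 FlipFlop groups deviated together from their group means, the FlipFlop comparison was also fitted with the replicate as a block. Without the TMM factor 0 members were higher (6.79% of all tested genes) and 12 lower (25.5% of all tested genes) in FlipFlop CD4 than in FlipFlop CD8 T cells by limma. The median of all tested genes then moved by -0.17, and 21.0% of all calls were higher in CD4, against 49.0% with it. In the paired fit 5 members were higher (18.4% of all tested genes) and 6 lower (18% of all tested genes) in CD4 T cells, with added calls for Acss2, Hmgcs1, Mvd and Msmo1 (adjusted p = 0.00223, 0.0422, 0.0237 and 0.0390 by limma).

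**Figure D3:**
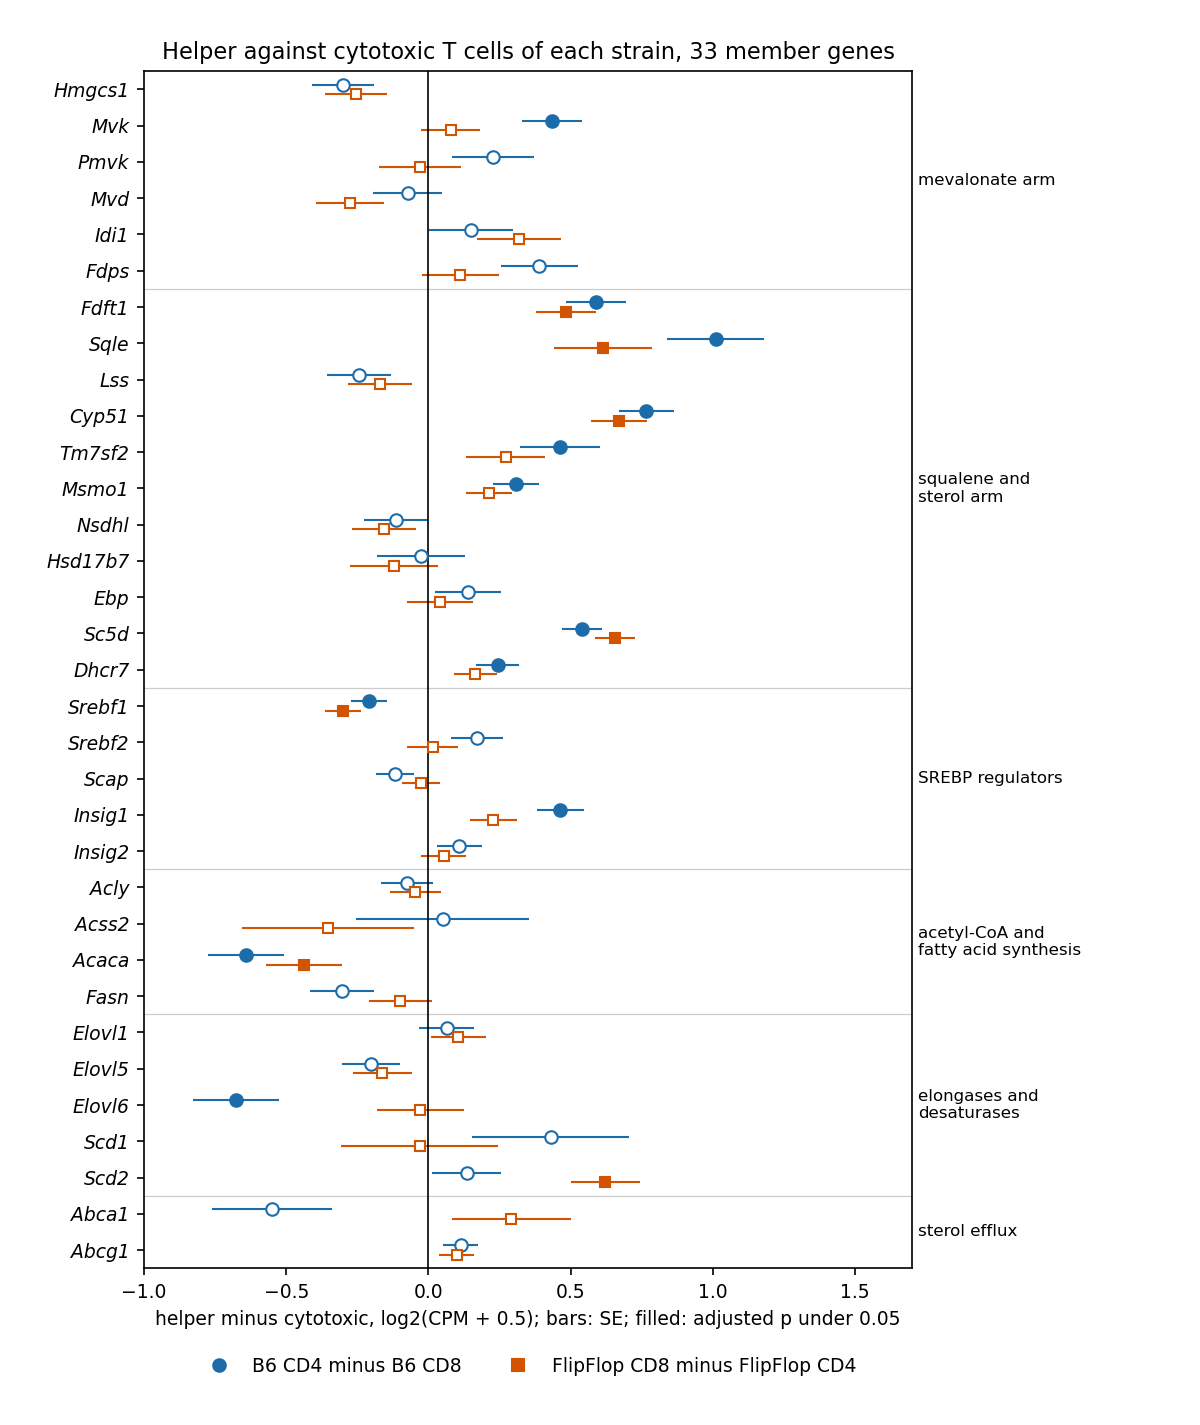
Helper minus cytotoxic difference on the log2(CPM + 0.5) scale for the 33 members, as circles for B6 (CD4 minus CD8) and squares for FlipFlop (CD8 minus CD4), with lines of 1 SE and filled symbols for an adjusted p under 0.05. In 29 of 33 members both symbols lie on the same side of 0, and Pmvk, Acss2, Scd1 and Abca1 have them on opposite sides.

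Markers of other cell states moved with these groups. The sum of 8 regulatory T cell markers was at 416 to 512 CPM in B6 CD4 and 1028 to 1219 CPM in FlipFlop CD8 libraries, against 65.3 to 78.4 CPM in the cytotoxic groups. The sum of 8 cycling markers was at 148 to 227 CPM in FlipFlop CD8, 51.3 to 76.4 CPM in B6 CD4, and 38.8 to 61.1 CPM in the cytotoxic groups. The sum of 8 memory or effector markers was at 417 to 526 CPM (B6 CD4), 818 to 908 CPM (B6 CD8), 515 to 553 CPM (FlipFlop CD4) and 887 to 1256 CPM (FlipFlop CD8). Its markers differed in direction. Il2rb made up much of it, at 249 to 307 CPM in B6 CD4 and 547 to 585 CPM in B6 CD8. Cd44 was higher in B6 CD4 than in B6 CD8, at 68.9 to 95.2 CPM against 42.6 to 51.0 CPM. In FlipFlop mice Cd44 was at 35.2 to 41.8 CPM (CD4) and 134 to 160 CPM (CD8). Klrg1 was at 4.96 to 7.995 CPM in B6 CD4 and at most 0.364 CPM in B6 CD8. The NK cell markers in the table (3 of 4, without the defining Ncr1) did not move together. Nkg7, which cytotoxic T cells also express, made up most of their sum in the cytotoxic groups, at 461 to 509 CPM in B6 CD8 and 293 to 297 CPM in FlipFlop CD4, against 6.71 to 67.3 CPM in helper libraries. Klrb1c was at 10.2 to 11.8 CPM in FlipFlop CD8 and 1.57 to 4.26 CPM in the other groups, and Klrk1 at 0.751 to 7.85 CPM in the 12 libraries. The part of these cells in the lineage differences was not tested.

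The strain effect, the mean of both FlipFlop groups minus the mean of both B6 groups, was lower for 8 members (24.2%, against 15.4% of all tested genes) and higher for 0 of 33 (15.8% of all tested genes). No member reached an unadjusted p under 0.05 in the higher direction. The 8 were Acss2, Scd1, Scd2, Tm7sf2, Cyp51, Mvd, Msmo1 and Dhcr7. The sum of 4 red blood cell markers was also lower in FlipFlop. It was at 22.1 to 28.8 CPM in B6 CD4 and 15.9 to 25.2 CPM in B6 CD8, against 6.67 to 14.2 CPM in FlipFlop CD4 and 9.62 to 14.2 CPM in FlipFlop CD8 libraries, with no overlap between strains. The sum of the 5 myeloid markers in the table (5 of 7, without Cd14 and Adgre1) was at 86.1 to 99.5 CPM (B6 CD4), 77.9 to 85.2 CPM (B6 CD8), 53.8 to 69.5 CPM (FlipFlop CD4) and 71.7 to 87.8 CPM (FlipFlop CD8). For it the cytotoxic groups were apart and the helper groups overlapped. The sum of 7 B cell markers was at 49.4 to 63.5 CPM (B6 CD4), 49.4 to 69.1 CPM (B6 CD8), 36.4 to 57.0 CPM (FlipFlop CD4) and 37.8 to 41.0 CPM (FlipFlop CD8). Here the helper groups were apart and the cytotoxic groups overlapped. The part of these cells in the strain differences was not tested. The median member difference was -0.088, and over all tested genes it was -0.0052. Without the TMM factor, the median of all tested genes moved by 0.11 toward FlipFlop, 81.0% of all calls were higher in FlipFlop, against 50.5% with the factor. Without it 5 members were lower (6.53% of all tested genes) and 3 (Mvk, Sc5d and Acly) were higher (27.8% of all tested genes).

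**Figure D4:**
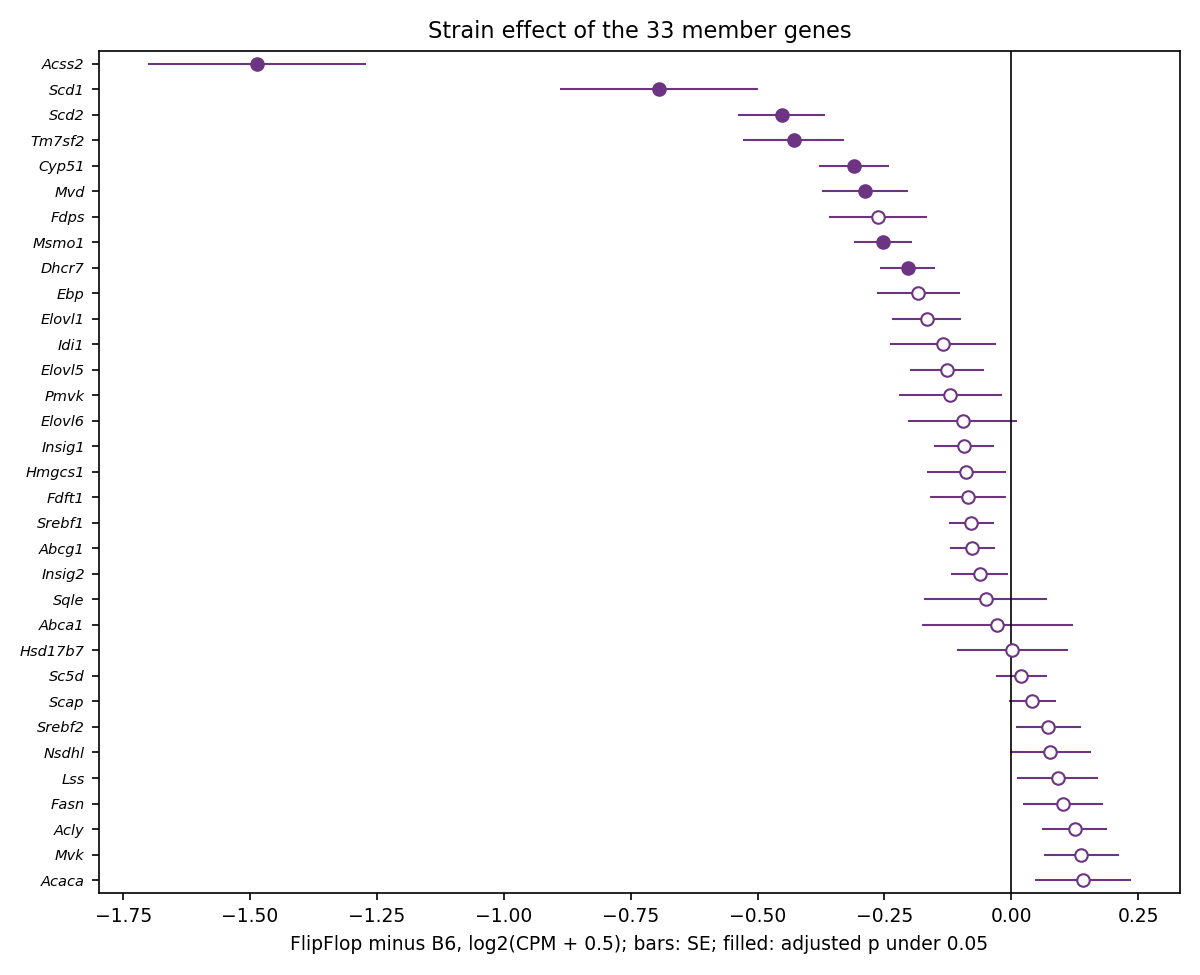
FlipFlop minus B6 difference on the log2(CPM + 0.5) scale for the 33 members, ordered by size, with lines of 1 SE and filled points for an adjusted p under 0.05. Acss2 stands far to the left at -1.49, the next is Scd1 at -0.69, and all 8 filled points lie below 0.

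Acss2 (chr2:155517948-155585724), whose enzyme makes acetyl-CoA from acetate, had the largest strain difference. It was at 90.0, 83.1 and 85.5 CPM in CD4 and 86.2, 83.9 and 79.7 CPM in CD8 libraries of B6 mice, and at 54.5, 27.1 and 26.2 CPM in CD4 and 45.6, 20.3 and 19.9 CPM in CD8 libraries of FlipFlop mice. All 6 FlipFlop libraries were below all 6 B6 libraries, as in 3.19% of all tested genes (2.66% were apart in the other direction). Replicate 1 of both FlipFlop groups lay between the others and B6. The strain effect was -1.49 (SE 0.21, adjusted p = 0.000561). FlipFlop replicate 1 was at 64.3% (CD4) and 53.8% (CD8) of the B6 mean of 84.7 CPM, and the other 4 FlipFlop libraries were at 23.4% to 32.0%. Without both FlipFlop libraries of replicate 1, left out after the values were seen, the effect was -1.85 (SE 0.051, adjusted p = 1.08e-08 by limma). Acss2 overlaps Ggt7 and Gss on the opposite strand, and no strand-specific counting is stated.

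The genes around Acss2 differed between the strains as well. Of the 16 tested genes that start within 500 kb of its start, 11 (68.8%) were called in the strain effect, against 31.2% of all tested genes, and 9 of the 11 were lower in FlipFlop. Ahcy, which encodes the enzyme that clears S-adenosylhomocysteine, starts at -459 kb from the start of Acss2. In B6 it was at 85.4, 77.9 and 77.1 CPM (CD4) and 92.3, 91.4 and 95.6 CPM (CD8). It was at 68.0, 38.6 and 33.5 CPM in FlipFlop CD4 and 62.4, 39.6 and 29.5 CPM in FlipFlop CD8 libraries. The FlipFlop libraries of replicate 1 were thus the highest of their groups for Ahcy too, with a strain effect of -0.99 (SE 0.18, adjusted p = 0.00252), and -1.29 (SE 0.085, adjusted p = 9.86e-06) without both of them. Dynlrb1, Gss and Uqcc1 were lower by smaller amounts (-0.57, -0.44 and -0.40), and Ncoa6 and Edem2 were higher (0.36 and 0.19). Around the other 7 members called in the strain effect, 11.1% to 37.5% of the tested genes within 500 kb were called. These neighbouring genes were chosen after their values were seen.

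**Figure D5:**
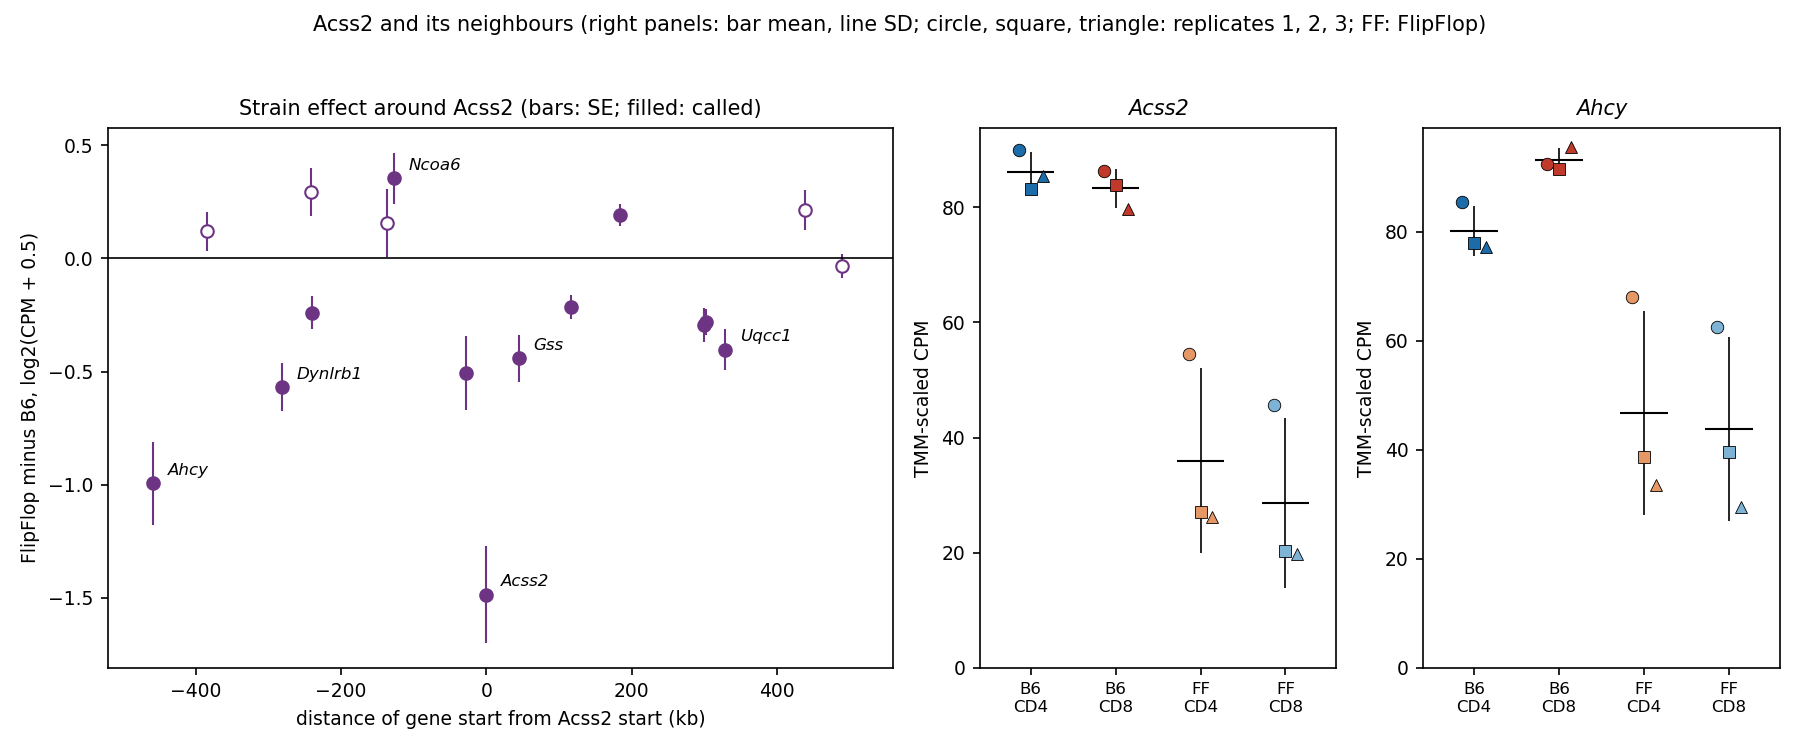
Left, FlipFlop minus B6 difference on the log2(CPM + 0.5) scale of Acss2 and the 16 tested genes within 500 kb, against the distance of their starts from that of Acss2 in kb, with lines of 1 SE and filled points for an adjusted p under 0.05. Right, TMM-scaled CPM of Acss2 and Ahcy in each library, with the mean and 1 SD of the group, where the circle of replicate 1 lies above the other points in both FlipFlop (FF) groups.

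The other strain differences were smaller. Scd1 (chr19:44394455-44407879), the paralog of Scd2, was at 6.73, 9.74 and 12.3 CPM in CD4 and 8.48, 4.89 and 7.50 CPM in CD8 libraries of B6 mice, and at 6.80, 5.19 and 3.05 CPM in CD4 and 5.38, 4.50 and 4.21 CPM in CD8 libraries of FlipFlop mice, with overlap between strains and a strain effect of -0.69 (SE 0.19, adjusted p = 0.0204). Scd2 was lower in FlipFlop, with a strain effect of -0.45 (SE 0.086, adjusted p = 0.00295), and its FlipFlop CD4 libraries were below all other libraries. Mvd (mevalonate diphosphate decarboxylase, chr8:122433601-122443422) was at 17.1, 13.6 and 15.3 CPM in CD4 and 16.5, 15.8 and 16.1 CPM in CD8 libraries of B6 mice, and at 15.4, 14.8 and 12.3 CPM in CD4 and 12.4, 12.7 and 9.80 CPM in CD8 libraries of FlipFlop mice. Its strain effect of -0.29 (SE 0.085, adjusted p = 0.0253) was no longer called without B6 CD8 replicate 3, FlipFlop CD4 replicate 3 or FlipFlop CD8 replicate 3 (adjusted p = 0.0513, 0.0604 and 0.0598 by limma). For Tm7sf2, Cyp51, Msmo1 and Dhcr7, which also had lineage effects, the strain effects were -0.43, -0.31, -0.25 and -0.20 (SE 0.10, 0.069, 0.057 and 0.053). The strain calls of Mvd (-0.18, adjusted p = 0.0765), Msmo1 (-0.14, adjusted p = 0.0538) and Dhcr7 (-0.093, adjusted p = 0.164 by limma) were lost without the TMM factor. That of Scd1 was lost without the shrinkage of variances (adjusted p = 0.0583).

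Groups of the same lineage were then compared across strains, where a difference again includes that of age. Between the cytotoxic groups, FlipFlop CD4 minus B6 CD8, 2 members were lower, Acss2 (-1.28, SE 0.30, adjusted p = 0.0220) and Scd2 (-0.70, SE 0.12, adjusted p = 0.00389), and 0 were higher by limma, where 7.92% of all tested genes were called, 4.17% higher and 3.75% lower. The libraries of these groups did not overlap for 12 members (32.4% of all tested genes), 3 higher (16.7%) and 9 lower (15.7%) in FlipFlop CD4. The count of 2 lower members was 1 without any 1 of the B6 CD8 libraries, without FlipFlop CD4 replicate 2 or 3, or without the shrinkage of variances. The lower calls over all tested genes also fell without those libraries. They were 2.9%, 2.07% and 2.5% without B6 CD8 replicates 1, 2 and 3, and 2.42% and 2.45% without FlipFlop CD4 replicates 2 and 3. Between the helper groups, FlipFlop CD8 minus B6 CD4, 8 members (24.2%) were lower, against 14.4% of all tested genes, and 0 were higher by limma, against 13.2%, where 27.6% were called in either direction. Their libraries did not overlap for 12 members (43.6% of all tested genes), 0 higher (20.2%) and 12 lower (23.4%) in FlipFlop CD8. The 8 called members were Acss2, Scd1, Tm7sf2, Fdps, Mvd, Cyp51, Msmo1 and Dhcr7, with differences from -1.69 for Acss2 to -0.24 for Dhcr7. At an unadjusted p under 0.05 were 7 members (21.2%) between the cytotoxic groups and 9 (27.3%) between the helper groups, against 22.9% and 42.3% of all tested genes. The count of 8 depended on single libraries, with 1 member left without FlipFlop CD8 replicate 3, 3 without FlipFlop CD8 replicate 2 and 5 without any 1 of the B6 CD4 libraries. The lower calls over all tested genes also fell without those 2 FlipFlop libraries, from 14.4% to 5.46% and 6.23%, and were 8.46%, 13.3% and 16.2% without B6 CD4 replicates 1, 2 and 3. Without the TMM factor 1 member was lower (4.73% of all tested genes) and 2 were higher (24.5%), and 83.8% of all calls were higher in FlipFlop CD8, against 47.8% with it. The difference between the 2 cross-strain comparisons is the coreceptor effect given above, times 2. It was called for 0 members without the replicate block, and for Acss2 and Elovl6 with it.

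A further list of 33 genes of the same pathways, chosen by function with earlier results of these data known, had 30 genes in the table, all tested. In the lineage effect 6 of the 30 were higher in helper cells and 5, with Nr1h2 among them, were lower. Of all tested genes 19.9% and 19.4% were called. The largest difference was that of Elovl7, a fatty acid elongase gene, at 3.68, 4.29 and 4.04 CPM in CD4 and 12.4, 12.6 and 11.8 CPM in CD8 libraries of B6 mice, and at 7.75, 11.96 and 8.998 CPM in CD4 and 3.02, 2.78 and 3.52 CPM in CD8 libraries of FlipFlop mice. It was lower in helper cells, with a lineage effect of -1.49 (SE 0.10, adjusted p = 1.57e-07) and the lineages did not overlap. Hacd3, a dehydratase of chain elongation, was at 110.1, 106 and 109 CPM in CD4 and 78.3, 81.9 and 80.7 CPM in CD8 libraries of B6 mice, and at 74.8, 72.8 and 68.5 CPM in CD4 and 113, 118 and 107 CPM in CD8 libraries of FlipFlop mice. Its lineages did not overlap either, and it was higher in helper cells by 0.54 (SE 0.042, adjusted p = 5.67e-07). Nr1h3, which encodes the sterol sensor LXRα, and Rxra, which encodes its partner, were higher by 0.41 and 0.40 (SE 0.10 and 0.088, adjusted p = 0.00602 and 0.00309). For both the FlipFlop CD8 libraries were the highest, at 1.69 to 2.15 CPM for Nr1h3 and 34.6 to 45.0 CPM for Rxra, and the B6 groups overlapped. Nr1h2, which encodes LXRβ and is on the same list, was named after its value was seen. In B6 mice it was at 83.5, 76.8 and 77.2 CPM in CD4 and 89.5, 84.9 and 90.6 CPM in CD8 libraries. In FlipFlop mice it was at 83.8, 82.6 and 79.9 CPM in CD4 and 71.0, 65.4 and 61.8 CPM in CD8 libraries. It was called in the other direction, lower in helper cells, with a lineage effect of -0.24 (SE 0.047, adjusted p = 0.00153 by limma). The coreceptor effect called 0 of the 30 by limma, where 5.49% of all tested genes were called, with 8 of the 30 at an unadjusted p under 0.05 (18.6% of all tested genes were). The strain effect called 3 of the 30 higher and 7, with Nr1h2 among them, lower, against 15.8% and 15.4% of all tested genes.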

How the data were processed

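RNA from sorted lymph node CD4 and CD8 T cells of B6 and FlipFlop mice was sequenced in 3 libraries a group. The study describes a SMARTer low-input kit, whose strand setting is not stated, and alignment to mm10 with STAR, whereas the submitters' processing notes name Trimmomatic and TopHat. The authors deposited 1 table of 12809 genes with a signal per library, read here as CPM scaled by TMM factors. The basis for this is that whole steps of 0.01 read were recovered for 100% of values under 100 CPM. Whole reads, to within 0.005 reads, were recovered for 84.8% to 86.4% of them. Too few values gave whole reads for a test on counts. Depth was about 26570300 to 33115700 reads a library, and floors and read numbers cover counting error only. Gene positions are from GENCODE M21 on GRCm38, matched by identifier for all 12809 rows, and promoter windows are from RefSeq on GRCm38.p6.

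Genes at 1 CPM or more in at least 3 libraries (11595, with 1214 left out) were tested with limma 3.58.1 in R 4.3.3 on log2(CPM + 0.5), with 1 mean for each group, all 12 libraries, a mean-dependent prior and Benjamini-Hochberg adjustment over all tested genes. The lineage, coreceptor and strain effects, both within-strain differences and both cross-strain differences were fitted. The fits were tested on simulated data. Tables and plots were made with pandas 2.3.3, numpy 2.4.6 and matplotlib 3.10.9. All 33 members are named, with values in every library for those called in the lineage, coreceptor or strain effect. Pathway genes are named where they were among the 4 with the largest called lineage effects, and Nr1h2 was named after its value was seen. The members and lists were chosen with earlier results of these data known.

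Same-numbered libraries of the FlipFlop groups deviated together from their group means (correlations of 0.443, 0.271 and 0.513 for replicates 1, 2 and 3, with the numbers taken from the sample titles), so the FlipFlop numbers were taken as pairs. For B6 the correlations were 0.184, 0.0887 and 0.352, and these libraries share only a number. Alternatives were another pseudocount, filter, scaling or threshold, a fit without shrinkage, a replicate block and leaving out each library. Ages are those of the sample labels, and the age labelled for FlipFlop mice lies above the general range in the study's methods, so the ages are uncertain.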

Additional observations from a re-analysis of the deposited data

Results flagged for a closer look

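The CD4 minus CD8 difference was not the same in both strains for 14 members, by the interaction term of the limma fit at an adjusted p under 0.05 over all tested genes (39.3% of all tested genes). This is the lineage effect given above, times 2, so the values repeat that comparison as B6 minus FlipFlop on the log2 scale. It was positive for Sqle (1.62), Cyp51 (1.44), Sc5d (1.20), Fdft1 (1.07), Scd2 (0.76), Tm7sf2 (0.74), Insig1 (0.69), Msmo1 (0.52), Mvk (0.51) and Dhcr7 (0.41). It was negative for Srebf1 (-0.51), Hmgcs1 (-0.56), Elovl6 (-0.70) and Acaca (-1.08). For Elovl6 the difference was -0.68 in B6 and 0.03 in FlipFlop mice, and for Scd2 it was 0.13 and -0.62. Single libraries were not tested for standing apart from the others of their group of 3.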

How the results depend on the processing

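No difference called in the reported lineage, coreceptor or strain effect changed sign under any alternative run. Of 1978 pairs of a member result and an alternative, 14 lost the call, 34 gained it, and 62, for 30 of the 99 results, changed sign with no call on either side, where the reported differences were at most 0.15 in size. A 5-fold change with an unadjusted p under 0.05, after the fold limit of the study, left 0 members in every comparison by limma. By this rule few of all 11595 tested genes were left either. They were 148 higher and 39 lower in the lineage effect, 1 and 1 in the coreceptor effect, and 33 and 11 in the strain effect. Within B6 they were 111 and 71, and within FlipFlop mice 36 and 220. Without the TMM factor the lineage effect had 17 members higher and 1 lower, the strain effect 3 higher and 5 lower, FlipFlop CD4 minus CD8 0 higher and 12 lower, and FlipFlop CD8 minus B6 CD4 2 higher and 1 lower. With the replicate block, 5 members were lower in B6 CD4 minus CD8 (13.2% of all tested genes), 5 were higher in FlipFlop CD4 minus CD8, 7 were lower in the lineage effect (22.5% of all tested genes), and 1 was higher and 1 lower in the coreceptor effect. Among those the block added were Elovl5, Fdps and Hmgcs1 in B6, Acss2, Elovl5, Fdps and Mvd in the lineage effect, Ebp, Elovl1 and Fdps in the strain effect, and Ebp between the helper groups. The last 2 comparisons join libraries of different mice of the 2 strains that share only a number, and the others used the number within each strain. Without the shrinkage of variances 1 member was higher in FlipFlop CD4 minus CD8, 1 lower in FlipFlop CD4 minus B6 CD8 and 5 lower in FlipFlop CD8 minus B6 CD4. For the last, the 6 compared libraries alone gave 3. Of all 11595 tested genes, 1685, 364 and 1332 were called so without shrinkage, against 1779, 435 and 1668 with it. The 6 libraries alone gave 552 for the last. At an adjusted p under 0.01, 1 member was higher in FlipFlop CD4 minus CD8, 2 lower in the lineage effect, 5 lower in the strain effect, and 1 lower in each cross-strain comparison. The share of all tested genes at this threshold was not counted, so these counts cannot be set against it. The cause of these changes was not tested.

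The shares in brackets are ranges over all tested genes. Leaving out 1 library gave 7 to 10 members higher (11.7% to 15.5%) and 2 to 4 lower (7.95% to 12.1%) in B6. In FlipFlop 1 to 3 were higher (10.8% to 19.9%) and 4 to 7 lower (13.7% to 18.2%). In the lineage effect 10 to 11 were higher (18.2% to 21.9%) and 3 to 6 lower (16.4% to 23.2%). The coreceptor effect had 0 (0.88% to 1.79% higher, 2.54% to 3.78% lower). The strain effect had 0 higher (11.2% to 17.6%) and 7 to 10 lower (9.84% to 17%). For FlipFlop CD4 minus B6 CD8 there were 0 higher (2.37% to 7.43%) and 1 to 3 lower (2.07% to 6.08%). For FlipFlop CD8 minus B6 CD4 there were 0 to 1 higher (8.37% to 16.2%) and 1 to 9 lower (5.46% to 16.2%). The FlipFlop count of 2 higher members was 1 without FlipFlop CD4 replicate 2, FlipFlop CD8 replicate 2 or FlipFlop CD8 replicate 3. For FlipFlop CD4 minus B6 CD8 the count of 2 lower members became 1 without any 1 of the B6 CD8 libraries or FlipFlop CD4 replicate 2 or 3. The lineage calls of Hmgcs1, Srebf1 and Elovl6 and the strain calls of Mvd, Msmo1 and Dhcr7 were lost without the TMM factor, and those of Elovl6 (lineage) and Scd1 (strain) without shrinkage. A minimum mean of 5 CPM left out Tm7sf2.

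The differences whose sign changed were the following, on the log2 scale. Without the TMM factor it changed in the lineage effect for Hsd17b7 (0.0413), Scap (0.0481) and Acly (0.0611). It also did so in the coreceptor effect for Fdft1 (-0.000285), Cyp51 (-0.00572), Msmo1 (-0.00562), Nsdhl (-0.0313), Hsd17b7 (-0.00367), Ebp (-0.00371), Dhcr7 (-0.0142), Srebf1 (-0.00841), Insig2 (-0.0258) and Abcg1 (-0.0472). It also did so in the strain effect for Hmgcs1 (0.0226), Fdft1 (0.0248), Sqle (0.0579), Srebf1 (0.0328), Insig1 (0.0169), Insig2 (0.0476), Elovl6 (0.0134), Abca1 (0.0836) and Abcg1 (0.0354). With median-of-ratios rescaling it changed for Abcg1 in the coreceptor effect (-0.00536). Leaving out 1 library changed it in the lineage effect for Hsd17b7 (-0.14 to 0.0144), Acly (-0.10 to 0.00188) and Acss2 (-0.35 to 0.0178). The same held in the coreceptor effect for Hmgcs1 (-0.10 to 0.0236), Fdft1 (-0.00762 to 0.0903), Lss (-0.0834 to 0.0188), Cyp51 (-0.000968 to 0.0873), Nsdhl (-0.0379 to 0.0679), Hsd17b7 (-0.000504 to 0.14), Ebp (-0.00890 to 0.10), Acly (-0.0489 to 0.0480), Elovl1 (-0.0711 to 0.0221), Elovl5 (-0.0647 to 0.0249) and Abcg1 (-0.0152 to 0.0241). The same held in the strain effect for Sqle (-0.12 to 0.0507), Hsd17b7 (-0.0862 to 0.05002), Sc5d (-0.00480 to 0.0413) and Abca1 (-0.12 to 0.0760), given as the range over the libraries left out.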
